A study of Mus musculus with 48 samples.

Results

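The 10 genes described here form the core of the p53 response and of the mitochondrial decision for or against cell death, and were chosen by symbol out of 20622 genes quantified in mouse liver. They are Trp53, which encodes the transcription factor p53, its inhibitor Mdm2, the p53 target genes Cdkn1a, Ccng1, Phlda3 and Zmat3, the pro-apoptotic genes Bbc3 and Bax, and the anti-apoptotic genes Mcl1 and Bcl2l1. All 10 were matched by symbol and had both RNA counts and ribosome footprint counts. Livers came from 24 male mice of 2 to 4 months, 3 mice per genotype and day, taken at 4 or 10 days after intravenous AAV8.TBG.PI.Cre.rBG, a virus that expresses Cre from the hepatocyte-specific TBG promoter. Wild-type mice (WT) received the same virus and carried neither allele. Bcat mice were Ctnnb1ex3/+, in which Cre removes the exon of one β-catenin allele that marks the protein for degradation, Myc mice were R26-LSL-MYC, in which Cre switches on a MYC transgene, and BM mice carried both. Each liver lysate gave a library of ribosome footprints (ribosome-protected fragments, RPFs), stretches of mRNA shielded by translating ribosomes, and a paired library of cytoplasmic RNA. Every sample was 1 mouse, whole liver was sampled while recombination was restricted to hepatocytes, and fewer cells of a type and less RNA per cell cannot be told apart in such samples.

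In unstressed cells p53 protein is kept low because MDM2, an E3 ubiquitin ligase, marks it for destruction. Damaged DNA, an overactive oncogene or disturbed ribosome assembly frees p53, which then switches on genes that stop the cell cycle or promote apoptosis, and Mdm2 itself, so that the response is limited by its own product. Apoptosis through mitochondria depends on the balance between BCL-2 proteins that protect the outer membrane, such as MCL-1 and BCL-XL (the product of Bcl2l1), BH3-only proteins such as PUMA (the product of Bbc3) that block these protectors, and BAX, which permeabilises the membrane. Hepatocytes depend on MCL-1 and BCL-XL for survival. p53 is controlled largely at the level of its protein, which none of these libraries measured.

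p53 binds DNA at a response element made of 2 decamers of 10 bases, and members with such a sequence near their start site are shown here because the levels below are those of its target genes. The RefSeq promoter windows, from 250 bases before to 50 bases after each annotated start (GRCm38.p6), held 9 of the 10 members. Both strands were searched for 2 adjoining decamers with the core C and G of each decamer kept and at most 3 mismatches elsewhere. A match lay in 4 of the 9 members, in 5 of 28 other p53 target genes in the table and in 1.63% of all 27025 genes. The 4 sites, with the 20-base element in capitals and 5 bases on each side in lower case, read 5′ to 3′ on the strand of the gene, were:
Cdkn1a: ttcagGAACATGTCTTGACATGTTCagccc
Ccng1: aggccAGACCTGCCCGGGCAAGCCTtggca
Trp53: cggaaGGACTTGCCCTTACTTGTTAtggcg
Bbc3: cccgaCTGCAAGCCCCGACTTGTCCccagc
The Cdkn1a element had 1 mismatch and lay at chr17:29309902-29309921 on the plus strand of GRCm39, just upstream of the annotated gene. The Ccng1 element also had 1 mismatch and lay upstream of its gene, at chr11:40646289-40646308 on the minus strand. Only 0.0814% of all genes held an element with at most 1 mismatch. The Trp53 element (chr11:69471110-69471129, plus strand) and the Bbc3 element (chr7:16043411-16043430, plus strand) had 3 mismatches each and overlapped an untranslated exon of an annotated transcript. A match describes the letters of a window and does not show that p53 was bound there.

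RPF libraries held between 9742197 and 14380713 counts and RNA libraries between 3254141 and 6540116. Levels are given in CPM, counts scaled to the total of each library after TMM normalisation, separately for RPFs and RNA, and differences were tested with edgeR's quasi-likelihood test, adjusted over all genes by the Benjamini-Hochberg method and called at an adjusted p below 0.1. Comparisons with WT at one day share the same 3 WT mice. The labels held up in the libraries: RPFs of Glul, a β-catenin target that encodes glutamine synthetase, lay between 1629 and 5185 CPM in mice with the Ctnnb1 allele and between 511 and 862 in the others, and RPFs counted for Myc lay between 43.6 and 164 CPM in mice with the transgene against 2.43 to 35.3 in the others, while RNA counted for Myc did not separate them. BM mouse 1 of day 10 stood apart from the other two mice of its group. The SD over genes of its log2 difference from them was 0.722 in RPFs and 0.569 in RNA, the highest of all libraries, with 0.475 as the next highest, so the differences of the members in BM mice of day 10 are also given without it where they were called with or without it.

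The members did not move as a block. At day 4 the RPFs of 6 of 10 members were higher and of 1 lower in BM than in WT mice, where 26.2% and 24.7% of all 11375 genes tested were called higher and lower. In RNA, 6 of 9 members tested were higher and 2 lower, against 21.3% and 20.6% of all genes. Bcat mice at day 4 had 3 of 10 members lower in RPFs and 2 of 9 lower in RNA, against 6.26% and 3.73% of all genes, and none higher, against 6.21% and 4.41%. Myc mice at day 4 had 3 members higher and 1 lower in RPFs, against 18.5% and 14.7% of all genes, and 1 higher and 2 lower in RNA, against 13.5% and 10.3%. By day 10 every member called against WT was higher. These were 6 of 10 in Bcat RPFs (13.1% of all genes) and 4 of 10 in Bcat RNA (8.14%), 5 in Myc RPFs (10.6%) and 4 in Myc RNA (8.53%), and 8 in BM RPFs (24.5%) and 7 in BM RNA (22.9%). None was lower, where 12.1% and 7.48% of all genes were lower in Bcat RPFs and RNA, 8.8% and 7.12% in Myc and 22.3% and 22.8% in BM.

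Some of these counts rested on single mice. At day 4 the Bcat count was 1 in RPFs without WT mouse 3, and 1 in RNA without any 1 of the WT mice or without Bcat mouse 1 or 2. At day 10 the Bcat RNA count was 1 without WT mouse 2 or 3 and 2 without Bcat mouse 2. The Myc count of day 10 was 3 in RPFs without any 1 of the WT mice or without Myc mouse 2, and 2 in RNA without WT mouse 2 or 3 or Myc mouse 3. The BM RNA count of day 10 was 4 without WT mouse 3.

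BM mice were also compared with Myc mice, to show what the Ctnnb1 allele added to the transgene. At day 4, 4 of 10 members were higher in RPFs (18.8% of all genes higher, 19.3% lower) and 3 of 9 in RNA (14.6% and 15.9%), and none was lower. The RPF calls were Trp53 (log2 0.45 ± 0.11, adjusted p = 0.0155), Phlda3 (0.92 ± 0.19, adjusted p = 0.00553), Zmat3 (0.76 ± 0.17, adjusted p = 0.00838) and Bax. The RNA calls were Mdm2 (0.40 ± 0.09, adjusted p = 0.00729), Phlda3 (0.60 ± 0.21, adjusted p = 0.053) and Zmat3 (0.48 ± 0.15, adjusted p = 0.0318). The Phlda3 call was lost in 4 of 6 fits without 1 mouse (adjusted p up to 0.169) and the Zmat3 call without Myc mouse 1 or BM mouse 2 (adjusted p = 0.107 and 0.122). At day 10, Cdkn1a, Zmat3 and Bcl2l1 were higher in RPFs (16% of all genes higher, 16.7% lower) and in RNA (16.3%), and Trp53 was lower in RNA (log2 -0.66 ± 0.25, adjusted p = 0.0915, 16.6% of all genes lower). The calls of Trp53 and Zmat3 RNA were each lost in 5 of 6 fits without 1 mouse (adjusted p up to 0.266 and 0.258). Without BM mouse 1, 5 members were called in RPFs, higher for Cdkn1a (2.62, adjusted p = 8.59e-05), Zmat3 (1.03, adjusted p = 0.00663) and Bcl2l1 (2.43, adjusted p = 6e-05) and lower for Trp53 (log2 -0.35, adjusted p = 0.0448) and Mcl1 (log2 -0.58, adjusted p = 0.0128). The shares of all genes above come from the fits with all mice, and none is given without that mouse. In RNA without that mouse Cdkn1a was higher by 1.99 (adjusted p = 1.16e-05), Bcl2l1 was higher by 1.09 (adjusted p = 0.000892), Trp53 was lower (log2 -0.84, adjusted p = 0.0224) and Zmat3 did not pass (0.33, adjusted p = 0.15). The RNA values with all mice were 1.92 ± 0.19 for Cdkn1a (adjusted p = 0.000387), 0.95 ± 0.21 for Bcl2l1 (adjusted p = 0.0131) and 0.58 ± 0.22 for Zmat3 (adjusted p = 0.089).

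With all 24 mice in 1 fit, which then share 1 estimate of the spread, some of these calls ended. All 3 RNA calls of BM against Myc mice at day 4 did (adjusted p = 0.14 for Mdm2, 0.222 for Phlda3 and 0.131 for Zmat3). Against WT at day 4, those of Ccng1 and Phlda3 RPFs (0.307 and 0.172) and Ccng1 RNA (0.172) ended in Bcat mice. In Myc mice those of Mdm2, Ccng1 and Phlda3 RPFs (0.243, 0.168 and 0.166) and of Cdkn1a and Bcl2l1 RNA (0.132 and 0.134) ended, and in BM mice those of Ccng1 RPFs (0.312) and Cdkn1a RNA (0.117). At day 10 the calls of Ccng1 and Phlda3 RNA in Myc mice ended (0.101 and 0.126). In the same fit Trp53 was called lower and Ccng1 higher in RPFs of BM against Myc mice at day 10 (log2 -0.34, adjusted p = 0.0331, and 0.75, adjusted p = 0.0341), and Ccng1 higher in their RNA (0.43, adjusted p = 0.0443). Against WT at day 10 it added calls of higher Trp53 RPFs and Phlda3 RNA in Bcat mice (adjusted p = 0.0391 and 0.0809), Mdm2 RNA in Myc mice (0.0966) and Bax RNA in BM mice (0.0686).

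**Figure D1:**
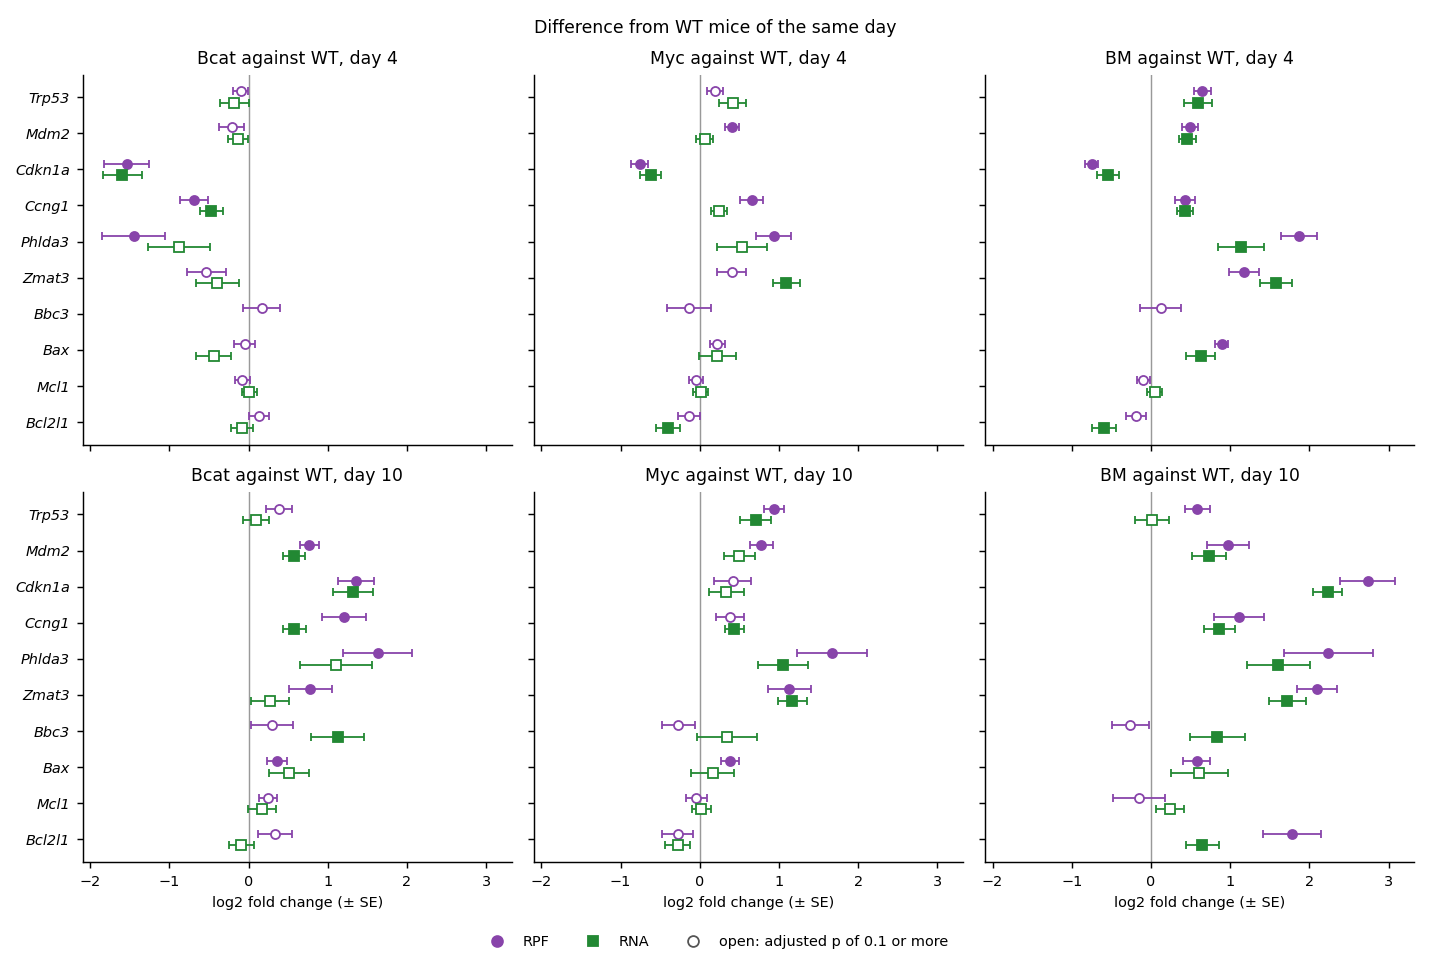
Log2 fold change from WT mice of the same day (horizontal axis, ± SE) of the 10 members in Bcat, Myc and BM mice, for RPFs (circles) and RNA (squares), with filled symbols where the adjusted p was below 0.1. Cdkn1a lies left of 0 in the 3 genotypes at day 4 and right of 0 in all of them at day 10, and Bcl2l1 RPFs lie far from 0 only in the panel of BM mice at day 10.

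Trp53 lies on chromosome 11 (GRCm39, 69469669 to 69482701, plus strand). In WT mice at day 4 its RPFs were 21.5, 21.7 and 21.7 CPM in mice 1, 2 and 3, and in BM mice 38.1, 31.8 and 29.97 CPM. All BM values lay above all WT values, a log2 difference of 0.64 ± 0.11 (SE, n = 3 mice per group, adjusted p = 0.000594). Trp53 RNA rose as well in BM mice, by a log2 difference of 0.59 ± 0.18 (adjusted p = 0.0202). In Bcat mice at day 4 RPFs were 19.7, 20.3 and 21.1 CPM and in Myc mice 24.9, 25.8 and 21.7 CPM, and neither group passed the test. The BM effect on Trp53 RPFs exceeded the sum of the Bcat and Myc effects by 0.54 ± 0.14 on the log2 scale (adjusted p = 0.0251).

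At day 10 the order of the groups was different, with Trp53 RPFs highest in Myc mice. They were 16, 19.2 and 14.9 CPM in WT, 19.1, 20.4 and 26.5 in Bcat, 29.2, 31.5 and 35.5 in Myc and 27.0, 25.1 and 23.96 in BM mice. Myc mice exceeded WT by 0.94 ± 0.13 (log2, adjusted p = 0.00489) and BM mice exceeded WT by 0.59 ± 0.16 (adjusted p = 0.025). The BM call was lost without WT mouse 3 (adjusted p = 0.113), and the value without BM mouse 1 was 0.54 (adjusted p = 0.00882). Trp53 RNA was 14.3, 13.7 and 14.7 CPM in WT mice at day 10, 19.9, 19.0 and 30.2 in Myc mice and 17.3, 10.6 and 15.3 in BM mice. The Myc RNA difference of 0.70 ± 0.19 (adjusted p = 0.0414) was lost when WT mouse 2, WT mouse 3 or Myc mouse 3 was left out (adjusted p = 0.101, 0.113 and 0.102), and the BM and WT values overlapped.

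Mdm2 (chromosome 10, 117524780 to 117546730, minus strand) has the double role of p53 target and p53 inhibitor. Its RPFs at day 4 were 30.9, 31.3 and 31.0 CPM in WT, 19.3, 30.2 and 31.7 in Bcat, 38, 43.4 and 39.2 in Myc and 48.2, 43.2 and 37.97 in BM mice. Myc and BM mice lay above WT mice without overlap, by 0.41 ± 0.09 (adjusted p = 0.00761) and 0.50 ± 0.10 (adjusted p = 0.00209) on the log2 scale. In RNA the BM mice, at 77.3, 70.2 and 69.6 CPM, exceeded the WT mice at 51.0, 59.3 and 47.7 CPM by 0.46 ± 0.10 (adjusted p = 0.00371), and the Myc mice at 52.5, 59.1 and 52.7 CPM overlapped WT (0.06 ± 0.11, adjusted p = 0.753). The difference of Myc mice from WT in Mdm2 footprints relative to RNA, the change in translation efficiency, was 0.35 on the log2 scale with a 95% interval of 0.06 to 0.64 and did not pass (adjusted p = 0.513).

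All 3 altered groups had more Mdm2 RPFs than WT mice at day 10. WT mice were at 15.3, 14.4 and 17.3 CPM and Bcat mice at 25.0, 28.2 and 27.6. Myc mice were at 24.5, 23.7 and 32.4 and BM mice at 44.4, 26.7 and 22.1. No altered mouse overlapped WT, with log2 differences of 0.77 ± 0.12 in Bcat (adjusted p = 0.00385), 0.78 ± 0.15 in Myc (adjusted p = 0.0149) and 0.98 ± 0.27 in BM mice (adjusted p = 0.0237). Without BM mouse 1, whose value of 44.4 was the highest, the BM difference was 0.63 (adjusted p = 0.00412).

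Cdkn1a (chromosome 17, 29309936 to 29319701, plus strand) encodes p21, the inhibitor of cyclin-dependent kinases through which p53 halts the cell cycle, and it had the widest range of RPF CPM among the members. Its RPFs at day 4 were 82.2, 77.7 and 79.0 CPM in WT mice and 13.3, 27.6 and 41.9 CPM in Bcat mice. They were 54.9, 42.8 and 40.2 CPM in Myc mice and 49.8, 43.3 and 47.1 CPM in BM mice. Every altered mouse lay below every WT mouse. The fall was 2.91-fold in Bcat (log2 -1.54 ± 0.28, adjusted p = 0.00702), 1.69-fold in Myc (log2 -0.76 ± 0.11, adjusted p = 0.00103) and 1.68-fold in BM mice (log2 -0.75 ± 0.08, adjusted p = 3.02e-05).

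Cdkn1a RNA at day 4 had the same group order between WT and the altered mice. It was 55.2, 57.5 and 47.5 CPM in WT, 8.31, 21.8 and 23.3 in Bcat, 41.2, 28.9 and 34.4 in Myc and 34.9, 45.5 and 29.7 in BM mice. The 3 altered groups were lower by log2 differences of -1.60 ± 0.25 (adjusted p = 0.00193), -0.62 ± 0.13 (adjusted p = 0.00562) and -0.54 ± 0.14 (adjusted p = 0.00886). BM mice had more Cdkn1a than the sum of the Bcat and Myc effects would give, by 1.53 ± 0.35 in RPFs (adjusted p = 0.0118) and by 1.70 ± 0.33 in RNA (adjusted p = 0.00379). Against Myc mice the RPF difference had a 95% interval of -0.25 to 0.26 (adjusted p = 0.972).

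By day 10 BM mice were highest and WT mice lowest for Cdkn1a. RPFs were 19.6, 10.1 and 14.3 CPM in WT, 46.7, 34.8 and 33.5 in Bcat, 18.8, 16.9 and 23.4 in Myc and 61.0, 107 and 129.5 in BM mice. BM mice exceeded WT 6.67-fold (log2 2.74 ± 0.34, adjusted p = 0.00134) and Myc mice 4.99-fold (log2 2.32 ± 0.30, adjusted p = 0.00361), and Bcat mice exceeded WT 2.57-fold (log2 1.36 ± 0.23, adjusted p = 0.00437). Myc mice overlapped WT (0.41 ± 0.23, adjusted p = 0.278). Mouse 1 was the lowest of the BM group and still above all mice of the other genotypes at day 10, and without it the difference from WT was 2.99 (adjusted p = 9.87e-07).

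The RNA of Cdkn1a at day 10 showed the same order. It was 17.0, 11.0 and 13.01 CPM in WT, 48.1, 28.9 and 25.4 in Bcat, 15.5, 13.6 and 22.2 in Myc and 57.4, 67.0 and 68.8 in BM mice. BM mice exceeded WT by 2.23 ± 0.18 (adjusted p = 6.73e-05), by 2.301 without BM mouse 1 (adjusted p = 9.36e-07), and Bcat mice exceeded WT by 1.32 ± 0.25 on the log2 scale (adjusted p = 0.00598). The departure from the sum of the Bcat and Myc effects did not pass at day 10 in RPFs (0.93 ± 0.40, adjusted p = 0.174), but without BM mouse 1 it did (1.19, adjusted p = 0.0133).

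The WT level of Cdkn1a was itself different between the days. A comparison of WT mice at day 10 with WT mice at day 4, added after the levels had been seen, gave a 5.38-fold fall of Cdkn1a RPFs (log2 -2.43 ± 0.18, adjusted p = 0.000232) and a 3.91-fold fall of its RNA (log2 -1.97 ± 0.16, adjusted p = 0.000119). Within the Bcat group the mean RPF level went from 27.6 ± 14.3 (SD, n = 3) to 38.3 ± 7.24 CPM, and within BM mice from 46.7 ± 3.24 to 99.1 ± 34.9 CPM. Within the Myc group, by the values given above, all mice of day 10 lay below all mice of day 4, as in WT. The BM effect changed between the days by 3.49 ± 0.36 in RPFs (adjusted p = 7.24e-05) and by 2.77 ± 0.25 in RNA (adjusted p = 4.73e-06). The Bcat effect, a comparison likewise added later, changed by 2.90 ± 0.43 in RPFs (adjusted p = 0.00127) and 2.91 ± 0.40 in RNA (adjusted p = 0.00036). Other members also fell in WT livers, namely Mdm2 in RPFs (log2 -0.99 ± 0.11, adjusted p = 0.0017), Bax in RPFs (log2 -0.46 ± 0.10, adjusted p = 0.0395) and Mdm2 and Ccng1 in RNA (log2 -0.65 ± 0.13, adjusted p = 0.0267, and log2 -0.68 ± 0.11, adjusted p = 0.0082). In all, 3 of 10 members were lower in RPFs and 3 of 9 in RNA, against 2.28% and 1.23% of all genes, and none was higher, against 2.17% and 1.09%. The Bax call was lost without WT mouse 1 or 2 of day 4 or WT mouse 3 of day 10 (adjusted p = 0.182, 0.101 and 0.113), and the Mdm2 RNA call without WT mouse 3 of day 10 (adjusted p = 0.119). The Bcat effect also changed between the days in RPFs of Mdm2 (0.98 ± 0.21, adjusted p = 0.0107), Ccng1 (1.91 ± 0.37, adjusted p = 0.00585), Phlda3 (3.08 ± 0.63, adjusted p = 0.00765) and Zmat3 (1.32 ± 0.36, adjusted p = 0.0335), so that 5 of 10 members were called against 8.39% of all genes higher and 8.83% lower. In RNA 4 were called, with Mdm2 (0.71, adjusted p = 0.0369), Ccng1 (1.04 ± 0.22, adjusted p = 0.0072) and Phlda3 (1.97 ± 0.64, adjusted p = 0.084) beside Cdkn1a, against 4.3% higher and 5.02% lower. The Mdm2 and Phlda3 RNA calls were lost in 3 and 9 of 12 fits without 1 mouse. The BM effect became higher for 3 members in RPFs, Cdkn1a, Bcl2l1 and Zmat3 (0.94 ± 0.30, adjusted p = 0.0384), against 17.2% of all genes higher and 18.6% lower, and for Cdkn1a and Bcl2l1 in RNA, against 13.4% and 16.6%. Without BM mouse 1 of day 10 these RPF values were 3.72 for Cdkn1a (adjusted p = 4.39e-08), 2.28 for Bcl2l1 (adjusted p = 1.2e-06) and 0.92 for Zmat3 (adjusted p = 0.0272), and the BM effect became lower for Bax (log2 -0.48, adjusted p = 0.00979) and Mcl1 (log2 -0.59, adjusted p = 0.00584), neither of which was called with all mice (log2 -0.30 and -0.05). In RNA without that mouse they were 2.84 for Cdkn1a (adjusted p = 8.27e-08), 1.37 for Bcl2l1 (adjusted p = 0.000335) and -0.75 for Trp53 (adjusted p = 0.0502). The Myc effect changed for Trp53 (0.75 ± 0.16, adjusted p = 0.0674) and Cdkn1a (1.184 ± 0.27, adjusted p = 0.0798), against 0.633% of all genes higher and 0.546% lower in RPFs, but these calls were lost in 6 and 8 of 12 fits without 1 mouse (adjusted p up to 0.161 and 0.198). With all 24 mice in 1 fit these 2 calls also ended (adjusted p = 0.111 and 0.43), as did those of Mdm2 RNA for the Bcat effect (0.134) and of Bax RPFs and Mdm2 RNA between the days in WT mice (0.199 and 0.146).

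**Figure D2:**
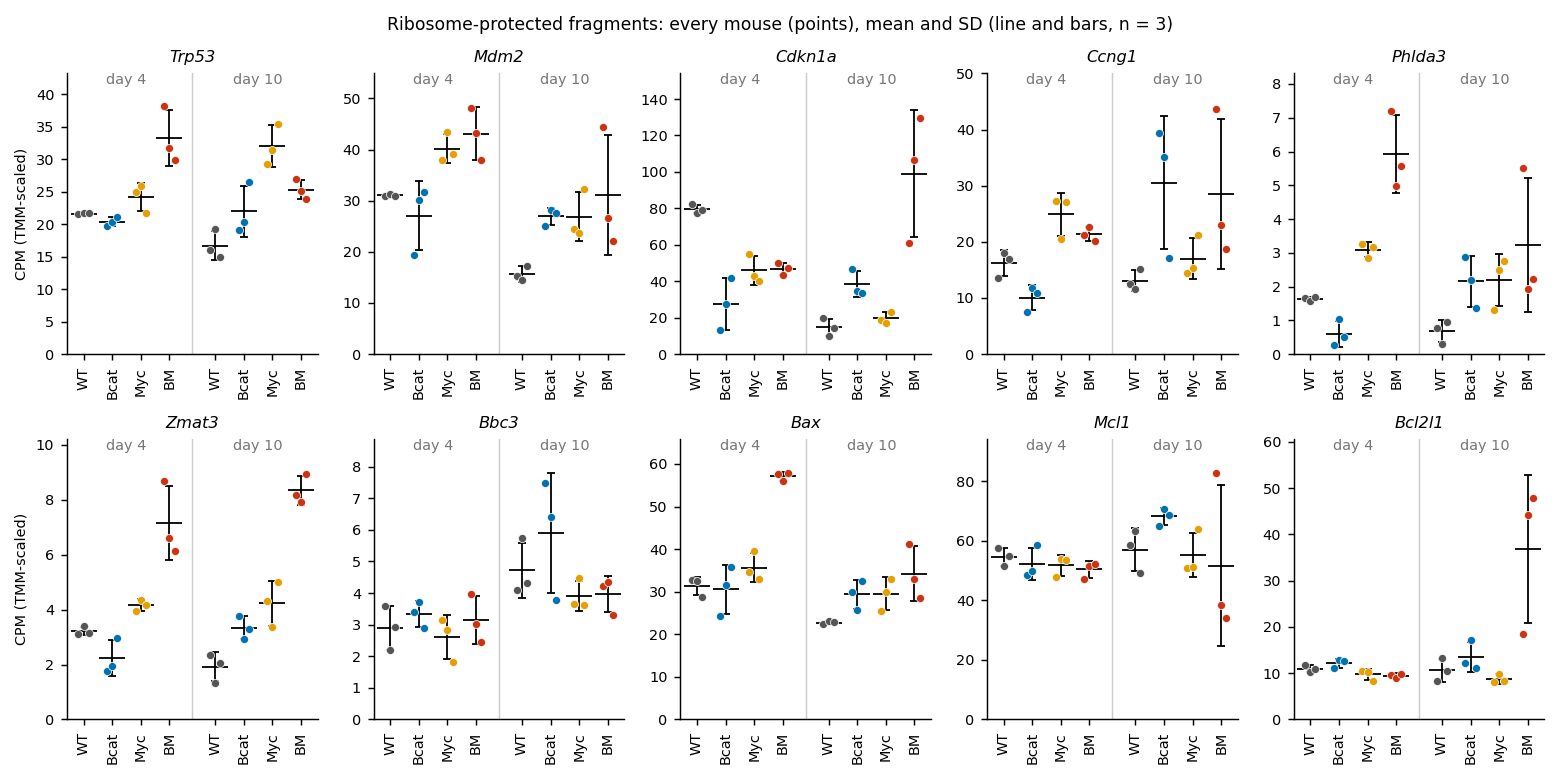
RPF level (CPM after TMM scaling, axes from 0) of each member in every mouse (points), with the mean and SD of each group of 3 mice (line and bars), for WT, Bcat, Myc and BM mice at day 4 and day 10. WT mice hold the highest Cdkn1a values at day 4, BM mice hold them at day 10, and 1 BM mouse at day 10 lies apart from the other two for Mcl1, Bcl2l1 and Ccng1.

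Ccng1 (chromosome 11, 40639377 to 40646148, minus strand) encodes cyclin G1, a p53 target that recruits a phosphatase to MDM2. Its RPFs at day 4 were 13.6, 18.1 and 17.0 CPM in WT and 7.54, 11.8 and 10.8 in Bcat mice. Myc mice were at 27.2, 20.5 and 27.1 CPM and BM mice at 21.2, 22.7 and 20.2 CPM. Bcat mice were lower (log2 -0.70 ± 0.18, adjusted p = 0.035), a call lost without WT mouse 3 (adjusted p = 0.115), and Myc and BM mice were higher, by 0.66 ± 0.15 (adjusted p = 0.009) and 0.43 ± 0.12 (adjusted p = 0.0159). Ccng1 had far more RNA than footprints on the CPM scale, and RNA in BM mice at day 4 was 254.5, 209 and 228 CPM against 179.5, 166 and 168 in WT (log2 0.43 ± 0.10, adjusted p = 0.00359).

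At day 10 Ccng1 RPFs varied widely within the 2 groups with the Ctnnb1 allele. They were 12.4, 11.7 and 15.1 CPM in WT, 39.4, 35.1 and 17.1 in Bcat, 14.5, 15.4 and 21.2 in Myc and 43.7, 23.1 and 18.7 in BM mice. The Bcat difference was 1.20 ± 0.27 (log2, adjusted p = 0.0168) and the BM difference 1.11 ± 0.32 (adjusted p = 0.0285). The BM call was lost without WT mouse 1 or WT mouse 2 (adjusted p = 0.1 and 0.101), and without BM mouse 1 the difference fell to 0.67 (adjusted p = 0.00533). Ccng1 RNA in BM mice, at 255, 169.7 and 159 CPM, exceeded WT, at 115, 93.7 and 112 CPM, by 0.86 ± 0.20 on the log2 scale (adjusted p = 0.00967) and by 0.61 without BM mouse 1 (adjusted p = 0.00143).

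Phlda3 and Zmat3 had few footprints and the largest rises of the members in BM mice at day 4. Phlda3 (chromosome 1, 135693809 to 135697686, plus strand) encodes a repressor of AKT signalling. Its RPFs were 1.66, 1.58 and 1.70 CPM in WT and 7.21, 4.98 and 5.56 CPM in BM mice at day 4, a 3.64-fold difference (log2 1.87 ± 0.23, adjusted p = 6.17e-05). Myc mice, at 3.25, 2.84 and 3.18 CPM, lay between them (0.93 ± 0.22 above WT, adjusted p = 0.0112). Bcat mice were at 0.276, 1.03 and 0.511 CPM, below all WT mice (log2 -1.45 ± 0.40, adjusted p = 0.048), but this rested on as few as 3 counts in a library, and the call was lost without WT mouse 1 or 3 or Bcat mouse 1 or 3 (adjusted p = 0.148, 0.137, 0.122 and 0.141). The BM effect on Phlda3 RPFs exceeded the sum of the Bcat and Myc effects by 2.37 ± 0.43 (adjusted p = 0.00306).

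At day 10 Phlda3 RPFs were 0.787, 0.307 and 0.961 CPM in WT, 2.89, 2.21 and 1.38 in Bcat, 1.32, 2.49 and 2.77 in Myc and 5.51, 1.94 and 2.23 in BM mice. No altered mouse overlapped WT. The differences were 1.63 ± 0.44 in Bcat (adjusted p = 0.033), 1.67 ± 0.44 in Myc (adjusted p = 0.0455) and 2.24 ± 0.56 in BM mice (adjusted p = 0.0177), the last 1.59 without BM mouse 1 (adjusted p = 0.00799). The Myc call was lost without WT mouse 1, WT mouse 2 or Myc mouse 2 (adjusted p = 0.111, 0.116 and 0.115).

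Zmat3 (chromosome 3, 32388941 to 32420163, minus strand) encodes an RNA-binding protein that acts downstream of p53 in tumour suppression. Its RPFs at day 4 were 3.13, 3.40 and 3.17 CPM in WT, 1.75, 1.958 and 2.98 in Bcat, 3.95, 4.37 and 4.18 in Myc and 8.68, 6.62 and 6.15 in BM mice. BM mice exceeded WT 2.25-fold (log2 1.17 ± 0.19, adjusted p = 0.00052), and the BM effect exceeded the sum of both others by 1.29 ± 0.30 (adjusted p = 0.0118). In RNA both groups with the transgene stood above WT: WT mice were at 13.6, 8.34 and 11.8 CPM, Myc mice at 23.2, 24.4 and 23.99 and BM mice at 30.9, 42.2 and 27.3. The Myc difference was 1.09 ± 0.17 (log2, adjusted p = 0.000581) and the BM difference 1.58 ± 0.20 (adjusted p = 3.2e-05).

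At day 10 both transgene groups were above WT in Zmat3 footprints and RNA. RPFs were 2.36, 1.33 and 2.04 CPM in WT, 3.78, 2.94 and 3.31 in Bcat, 4.32, 3.37 and 5.00 in Myc and 8.18, 7.92 and 8.92 in BM mice. BM mice exceeded WT 4.29-fold (log2 2.10 ± 0.26, adjusted p = 0.00118) and Myc mice by 0.96 ± 0.20 (adjusted p = 0.0182). Without BM mouse 1 the difference from WT was 2.11 (adjusted p = 3.78e-05). The Bcat difference of 0.78 ± 0.27 (adjusted p = 0.0807) was lost in 5 of 6 fits without 1 mouse (adjusted p up to 0.2). Myc mice exceeded WT by 1.13 ± 0.27 in RPFs (adjusted p = 0.0339), which reached an adjusted p of 0.1 without WT mouse 3, and by 1.17 ± 0.18 in RNA (adjusted p = 0.00296).

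Bax (chromosome 7, 45111015 to 45116325, minus strand), the effector that opens the mitochondrial outer membrane, was raised in BM mice at day 4. Its RPFs were 32.6, 32.4 and 28.8 CPM in WT and 24.4, 31.5 and 35.8 CPM in Bcat mice. Myc mice were at 34.6, 39.5 and 33.0 CPM and BM mice at 57.6, 55.9 and 57.8 CPM. BM mice exceeded WT 1.85-fold (log2 0.89 ± 0.09, adjusted p = 1.24e-05), Myc mice by 0.66 ± 0.08 (adjusted p = 0.000391) and the sum of both single effects by 0.70 ± 0.17 (adjusted p = 0.0132). Bcat and Myc mice did not pass against WT (log2 -0.05 ± 0.13 and 0.22 ± 0.10). RNA of Bax, with between 21 and 87 counts per library, was 13.7, 12.8 and 11.6 CPM in BM and 9.57, 8.12 and 6.96 CPM in WT mice (0.63 ± 0.18, adjusted p = 0.0168).

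At day 10 Bax RPFs were 22.3, 23.0 and 22.8 CPM in WT, 29.99, 25.7 and 32.5 in Bcat, 25.6, 30.03 and 33.1 in Myc and 41.2, 33.0 and 28.5 in BM mice. The BM difference was 0.58 ± 0.17 (log2, adjusted p = 0.033), and the Bcat and Myc differences were 0.36 ± 0.12 (adjusted p = 0.0756) and 0.38 ± 0.12 (adjusted p = 0.0684). The BM call was lost without WT mouse 1 or 3 (adjusted p = 0.109 and 0.108) and held without BM mouse 1 (0.43, adjusted p = 0.0154). The Bcat call was lost in 5 of 6 fits without 1 mouse (adjusted p = 0.135 to 0.182) and held without Bcat mouse 2 (adjusted p = 0.0611). The Myc call was lost in 5 of 6 (adjusted p = 0.108 to 0.174) and held without Myc mouse 1 (adjusted p = 0.0642). Both were also lost with the DESeq2 Wald test (adjusted p = 0.146 and 0.151).

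Bbc3 (chromosome 7, 16042318 to 16052130, plus strand), which encodes PUMA, was not called in footprints against WT. RPFs ranged from 1.82 to 3.97 CPM over the 4 genotypes at day 4 and from 3.31 to 7.48 CPM at day 10, and the BM difference had 95% intervals of -0.44 to 0.68 at day 4 and -0.81 to 0.28 at day 10. Its RNA had 4 to 26 counts per library and was too low to be tested at day 4. At day 10 RNA was 2.28, 1.37 and 1.72 CPM in WT, 4.04, 4.67 and 3.04 in Bcat and 3.98, 2.98 and 2.60 in BM mice. The Bcat difference was 1.12 ± 0.34 (log2, adjusted p = 0.0545) and the BM difference 0.84 ± 0.34 (adjusted p = 0.0873). Leaving out any of the 6 mice ended the BM call (adjusted p = 0.103 to 0.257), and the Bcat call was lost without WT mouse 2 or 3 or Bcat mouse 1 or 2 (adjusted p = 0.185, 0.179, 0.114 and 0.193).

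Further RNA differences of these genes were called. At day 10 Mdm2 RNA was higher than in WT in Bcat (0.57 ± 0.14, adjusted p = 0.0251) and BM mice (0.73 ± 0.22, adjusted p = 0.0289, and 0.45 without BM mouse 1, adjusted p = 0.0241), and both calls were lost without WT mouse 2 (adjusted p = 0.109 and 0.107) or WT mouse 3 (0.139 and 0.101), that of Bcat also without Bcat mouse 2 (0.111). Ccng1 RNA was higher in Bcat (0.58 ± 0.15, adjusted p = 0.0262) and Myc mice (0.44 ± 0.12, adjusted p = 0.0375). The Bcat call was lost without WT mouse 2, WT mouse 3 or Bcat mouse 2 (adjusted p = 0.107, 0.107 and 0.121) and the Myc call without WT mouse 2 or Myc mouse 2 (adjusted p = 0.105 and 0.125). At day 4 Ccng1 RNA was lower in Bcat mice (log2 -0.47 ± 0.14, adjusted p = 0.0794), a call lost in 5 of 6 fits without 1 mouse. Phlda3 RNA was higher in BM mice at day 4 (1.13 ± 0.29, adjusted p = 0.00796) and day 10 (1.61 ± 0.40, adjusted p = 0.0134, and 1.25 without BM mouse 1, adjusted p = 0.0204), and in Myc mice at day 10 (1.04 ± 0.32, adjusted p = 0.06), the last lost in 4 of 6 such fits. Zmat3 RNA in BM mice at day 10 was higher by 1.72 ± 0.23 (adjusted p = 0.000836), and by 1.47 without BM mouse 1 (adjusted p = 6.9e-05).

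**Figure D3:**
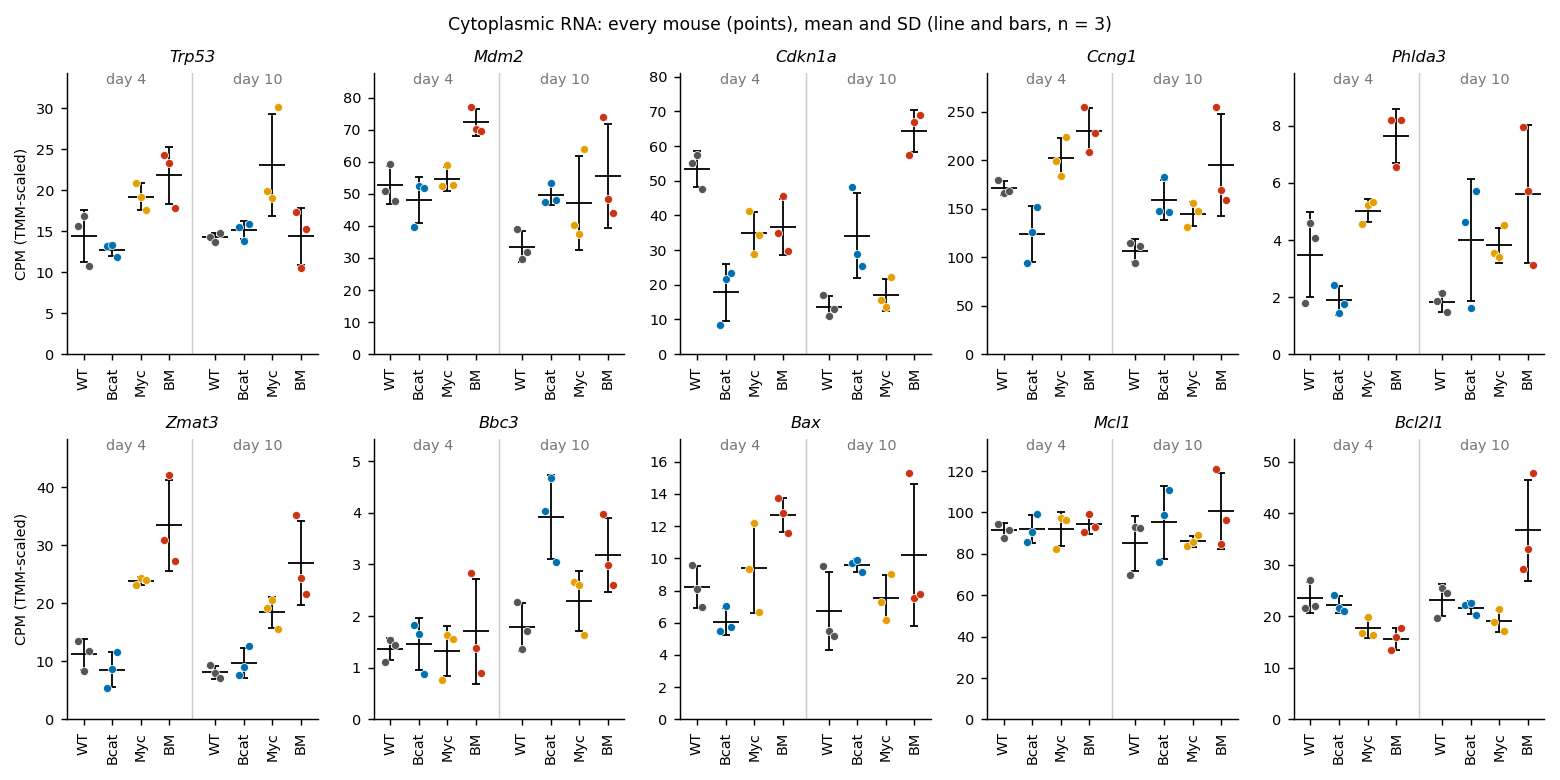
RNA level (CPM after TMM scaling, axes from 0) of each member in every mouse (points), with the mean and SD of each group of 3 mice (line and bars), in the same layout as the RPF levels. Cdkn1a RNA is highest in WT mice at day 4 and in BM mice at day 10, Zmat3 RNA is raised in Myc and BM mice at both days, and Mcl1 RNA differs little between groups.

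Mcl1 (chromosome 3, 95566026 to 95570487, plus strand) encodes a short-lived protector of the mitochondrial membrane. At day 4 its RPFs lay between 47.2 and 58.5 CPM in all mice, and no genotype passed against WT. The BM difference was -0.10 with a 95% interval of -0.29 to 0.10 on the log2 scale. At day 10 RPFs were 58.6, 63.2 and 49.0 CPM in WT, 65.1, 70.8 and 68.6 in Bcat, 51.0, 51.1 and 63.8 in Myc and 82.9, 38.3 and 34.0 in BM mice. The BM group thus held both the highest value of all mice and the lowest ones. With all 3 BM mice the difference from WT was -0.15 ± 0.33 (adjusted p = 0.734). Without BM mouse 1 it was -0.67 (adjusted p = 0.00178), and the fall from Myc mice was -0.58 (adjusted p = 0.0128). Mcl1 RNA in the same BM mice was 121, 84.6 and 96.4 CPM against 69.8, 92.9 and 92.3 CPM in WT, and did not pass with or without mouse 1 (0.24 ± 0.18, adjusted p = 0.325, and 0.08, adjusted p = 0.678).

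Bcl2l1 (chromosome 2, 152622582 to 152673655, minus strand) encodes BCL-XL and was called higher than WT in 1 group only, the BM mice of day 10. Its RPFs there were 18.5, 44.3 and 47.9 CPM. They were 8.22, 13.2 and 10.6 CPM in WT, 12.2, 17.1 and 11.2 in Bcat and 8.13, 9.89 and 8.23 in Myc mice. Every BM mouse lay above every other mouse of that day, and the difference was 3.43-fold against WT (log2 1.78 ± 0.37, adjusted p = 0.00868) and 4.16-fold against Myc mice (log2 2.06 ± 0.36, adjusted p = 0.0107). Without mouse 1, the lowest of the BM group, these were 2.11 (adjusted p = 2.95e-06) and 2.43 (adjusted p = 6e-05).

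The BM effect on Bcl2l1 was different between the days. At day 4 RPFs were 11.8, 10.2 and 10.9 CPM in WT and 9.60, 8.98 and 9.86 CPM in BM mice (log2 -0.19 ± 0.13, adjusted p = 0.255), and the change of the BM effect from day 4 to day 10 was 1.97 ± 0.42 (adjusted p = 0.00544). It exceeded the sum of the Bcat and Myc effects at day 10 by 1.71 ± 0.45 (adjusted p = 0.0476), a call lost without WT mouse 2, WT mouse 3, Bcat mouse 1, BM mouse 2 or BM mouse 3 (adjusted p = 0.103, 0.101, 0.1, 0.111 and 0.107). RNA of Bcl2l1 was lower in BM than in WT mice at day 4, at 13.4, 15.9 and 17.6 against 21.6, 27.0 and 22.1 CPM (log2 -0.59 ± 0.16, adjusted p = 0.00895), and in Myc mice (log2 -0.40 ± 0.15, adjusted p = 0.0756), a call lost in 4 of 6 fits without 1 mouse (adjusted p up to 0.241). At day 10 it was 29.2, 33.0 and 47.8 CPM in BM and 19.7, 25.4 and 24.6 CPM in WT mice (0.65 ± 0.21, adjusted p = 0.0384). That RNA call was lost without WT mouse 1, WT mouse 3 or BM mouse 3 (adjusted p = 0.158, 0.101 and 0.127) and was 0.78 without BM mouse 1 (adjusted p = 0.00451), and the change between the days was 1.23 ± 0.27 (adjusted p = 0.00484).

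Translation efficiency (TE), the ratio of footprints to RNA, was tested by asking whether a group difference was unequal in the 2 kinds of library. None of 134 TE values of members, over 14 comparisons, passed with edgeR, and none of 131 with DESeq2, while 9 had an unadjusted p below 0.05. Few genes of any kind were called in TE. Against WT they were 0.0488% in Bcat, 0.971% in Myc and 2.23% in BM mice at day 4, and 0.0564%, 0% and 0.259% at day 10. For BM against Myc mice they were 0.0943% and 0.132% at the 2 days, for BM against the sum 0.00925% and 0.0271%, for the change of the BM effect between days 0.31%, for those of the Bcat and Myc effects 0%, and for WT mice between days 0.501%. Bcl2l1 had one of the largest values. Its log2 TE, computed with 0.5 added to each count, was -0.67, 0.42 and 0.0012 in BM mice of day 10 and -1.26, -0.95 and -1.21 in WT mice, and did not overlap between these groups. The test gave 1.11 with a 95% interval of 0.11 to 2.10 (adjusted p = 0.466). With each mouse as a block, since both libraries of a mouse came from 1 lysate, the value was 1.03 and passed (adjusted p = 0.077), as it did without BM mouse 1 (1.303, adjusted p = 0.00794).

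In the same BM mice of day 10 the TE of Mcl1 pointed the other way. It was -0.545, -1.145 and -1.505 in BM and -0.25, -0.56 and -0.91 in WT mice (log2 -0.41, 95% interval -1.29 to 0.47, adjusted p = 0.772), and without BM mouse 1 the difference of -0.77 passed (adjusted p = 0.0283). Without that mouse Trp53 also passed against WT (0.68, adjusted p = 0.0848), Bcl2l1 and Mcl1 passed against Myc mice (1.32, adjusted p = 0.0102, and log2 -0.68, adjusted p = 0.0416), and the change of the BM effect between days passed for Bcl2l1 (0.93, adjusted p = 0.0936). The shares of all genes called in TE without that mouse are not given. With all 24 mice in 1 fit Bcl2l1 TE passed in BM against WT and against Myc mice at day 10 (adjusted p = 0.0314 and 0.0544). The mouse block also brought Ccng1 past the threshold in BM against Myc mice at day 4 (log2 -0.42, adjusted p = 0.0389, against -0.43, adjusted p = 0.886, without the block). Across members, log2 TE ranged from -3.81 to -1.90 for Ccng1 and from 1.22 to 2.62 for Bax. TE compares libraries of different kinds and is no absolute rate.

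**Figure D4:**
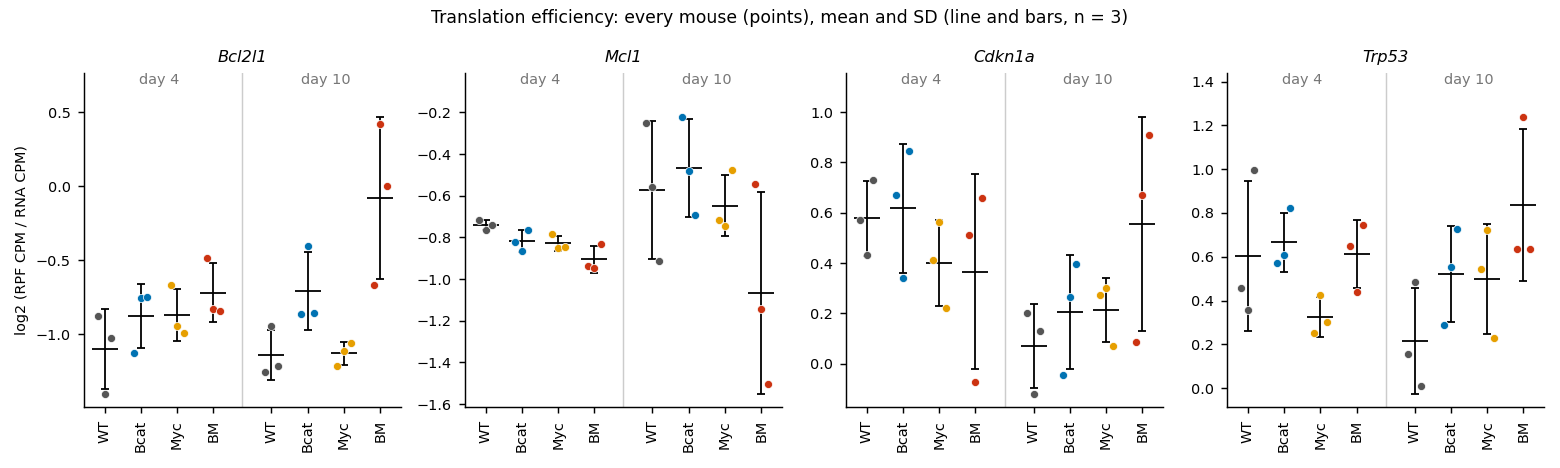
Log2 ratio of RPF CPM to RNA CPM (0.5 added to each count) in every mouse (points), with the mean and SD of each group of 3 mice (line and bars), for Bcl2l1, Mcl1, Cdkn1a and Trp53; the vertical axes differ. Bcl2l1 is highest and Mcl1 lowest in 2 of the 3 BM mice of day 10, whereas Cdkn1a and Trp53 overlap between most groups.

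BM mice were compared with the sum of the Bcat and Myc effects at each day, and the difference between the days was not tested. At day 4, 5 of 10 members exceeded the sum in RPFs and 6 of 9 in RNA, against 8.41% and 5.56% of all genes, and none fell short, against 11.3% and 7.27%. The RPF calls were those of Trp53, Cdkn1a, Phlda3, Zmat3 and Bax given above, and each held when any mouse was left out. With all 24 mice in 1 fit the Trp53 call ended (adjusted p = 0.105) and in RNA only Cdkn1a remained called, with adjusted p values of 0.3 for Mdm2, 0.144 for Ccng1, 0.155 for Phlda3, 0.192 for Zmat3 and 0.261 for Bax. In RNA, Mdm2 (0.56 ± 0.16, adjusted p = 0.0368), Ccng1 (0.68 ± 0.19, adjusted p = 0.03) and Phlda3 (1.50 ± 0.43, adjusted p = 0.0393) joined Cdkn1a. The Mdm2 call was lost without WT mouse 2 (adjusted p = 0.104), the Phlda3 call without WT mouse 2, WT mouse 3 or Bcat mouse 2 (adjusted p = 0.123, 0.117 and 0.108), and the RNA calls of Zmat3 and Bax (adjusted p = 0.0904 and 0.0952) were lost in 9 and 11 of 12 such fits. At day 10, Bcl2l1 exceeded the sum in RPFs (4.79% of all genes) and in RNA (1.06 ± 0.26, adjusted p = 0.0401; 3.59% of all genes higher, 4.54% lower) and Trp53 fell short of it (log2 -0.75 ± 0.22, adjusted p = 0.0624; 7.68% of all genes). The Trp53 call was lost in 8 of 12 fits without 1 mouse, with adjusted p values up to 0.158, and without BM mouse 1 the number of RPF calls rose from 2 to 7. The share of all genes called without that mouse is not given, so this rise cannot be read as particular to the members. Bcl2l1 (2.03, adjusted p = 0.000306) and Cdkn1a then exceeded the sum, and Trp53 (log2 -0.80, adjusted p = 0.0141), Mdm2 (log2 -0.94, adjusted p = 0.00549), Ccng1 (log2 -0.95, adjusted p = 0.087), Phlda3 (log2 -1.74, adjusted p = 0.0451) and Mcl1 (log2 -0.89, adjusted p = 0.00353) fell short of it. In RNA without that mouse Bcl2l1 exceeded it by 1.20 (adjusted p = 0.00372) and Trp53 fell short (log2 -0.90, adjusted p = 0.0516). Trp53 RNA also fell short with all 24 mice in 1 fit (log2 -0.77, adjusted p = 0.0733).

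**Figure D5:**
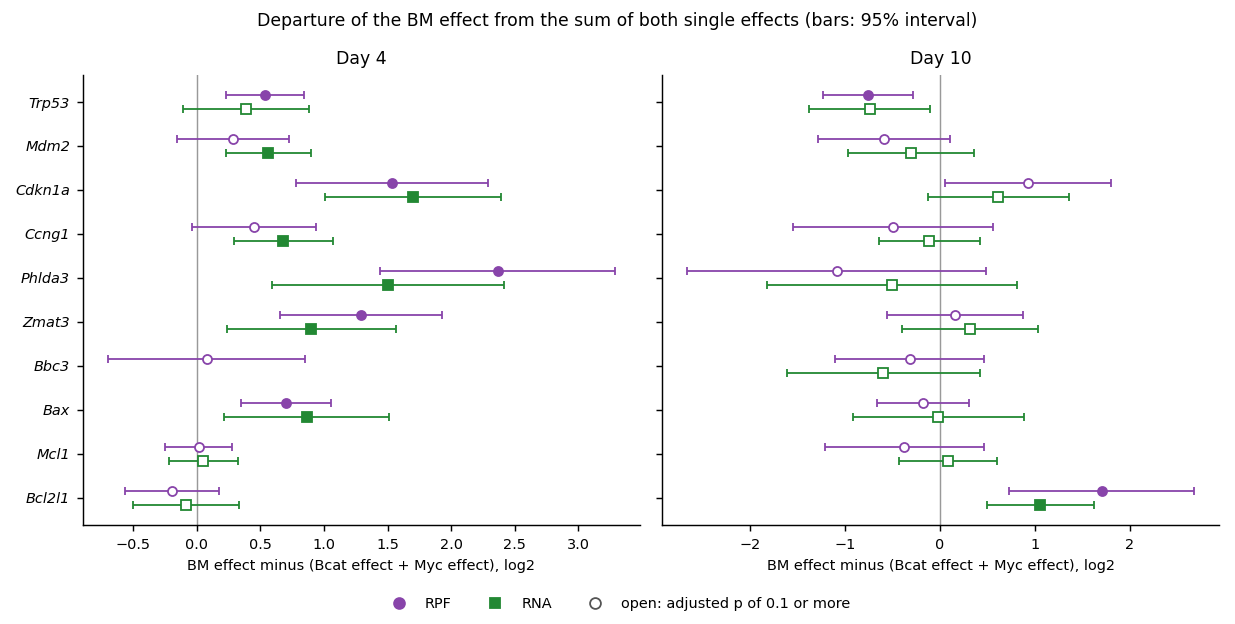
BM effect minus the sum of the Bcat and Myc effects (log2, horizontal axis) with 95% intervals for RPFs (circles) and RNA (squares), with filled symbols where the adjusted p was below 0.1. At day 4 the filled symbols lie right of 0, and at day 10 they are Bcl2l1 right of 0 and Trp53 RPFs left of it.

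The level order of the members was set by length-scaled RNA (TPM). In WT mice at day 4 Ccng1 was highest at 55.0 ± 3.55 TPM (SD, n = 3), followed by Cdkn1a at 38.3 ± 1.77, Mcl1 at 30.2 ± 2.50 and Mdm2 at 19.1 ± 1.40. Bax (13.2 ± 1.54), Bcl2l1 (12.0 ± 1.34) and Trp53 (9.44 ± 1.54) came next, and Bax and Bcl2l1 did not differ beyond their spread. Phlda3 (2.98 ± 1.32), Zmat3 (1.58 ± 0.400) and Bbc3 (0.893 ± 0.170) were lowest. At day 10 Cdkn1a was at 13.03 ± 2.63 TPM in WT mice, below Mcl1 at 38.1 ± 8.38.

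Other genes of the p53 response were read from a list of 35 further target genes. In BM mice at day 4, 15 of 31 tested were higher in RPFs and 5 lower, against 26.2% and 24.7% of all genes, and their median log2 difference was 0.26 where that of all genes was 0.00. At day 10 the counts were 17 higher and 2 lower of 32, against 24.5% and 22.3% of all genes, with a median of 0.83 against 0.03. In RNA of BM mice 10 were higher and 6 lower of 31 at day 4, against 21.3% and 20.6%, with a median of 0.10. At day 10 13 were higher and 2 lower of 29 in RNA, against 22.9% and 22.8%, with a median of 0.57. Bcat mice had 3 higher and 7 lower of 30 at day 4, against 6.21% and 6.26% of all genes, and 12 higher and 1 lower of 30 at day 10, against 13.1% and 12.1%. Myc mice had 8 higher and 3 lower of 29 at day 4, against 18.5% and 14.7%, and 8 higher and 2 lower of 30 at day 10, against 10.6% and 8.8%. The WT level of the list itself differed between the days, with 1 higher and 7 lower of 29 in RPFs at day 10 against day 4, where 2.17% and 2.28% of all genes were called, and a median of -0.20. The largest change was that of Ckap2, a microtubule-associated gene of dividing cells, at 100.5, 65.6 and 78.4 CPM in BM and 1.66, 1.21 and 1.58 CPM in WT mice at day 4 in RPFs. Summed RPFs of the cycling cell markers, all of them detected in every group, ranged from 629 to 1081 CPM in BM mice of day 4 and from 64.2 to 70.2 in WT mice, and from 139 to 171 in BM and 68.8 to 105 in WT mice of day 10. The same sums ranged from 88.0 to 111 CPM in Bcat and from 257 to 283 in Myc mice of day 4, and from 233 to 456 in Bcat and from 140 to 412 in Myc mice of day 10. At day 10 all 10 of these markers were higher in RPFs in Bcat and in Myc than in WT mice, against 13.1% and 10.6% of all genes, with median log2 differences of 3.11 and 2.36. Their part in these counts was not tested.

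Some of these targets had large values. Btg2, an anti-proliferative gene, was lower in Bcat than in WT mice at day 4 in RPFs, at 4.41, 3.92 and 2.98 against 12.5, 8.38 and 14.6 CPM (log2 -1.67 ± 0.23, adjusted p = 0.00123). Eda2r, a receptor of the TNF receptor family, was at 13.9, 13.04 and 12.0 CPM in BM and 3.13, 3.16 and 1.81 CPM in WT mice at day 4 (2.28 ± 0.19, adjusted p = 4.6e-06). Ddit4, an inhibitor of mTORC1 that also responds to glucocorticoids and hypoxia, was at 60.2, 213 and 245 CPM in BM and 10.1, 7.57 and 6.13 CPM in WT mice at day 10 (4.42 ± 0.54, adjusted p = 0.00118). Trp53inp1, which links p53 to autophagy and apoptosis, was at 99.9, 285 and 436 CPM in BM against 22.5, 27.3 and 30.2 CPM in WT mice (3.35 ± 0.49, adjusted p = 0.00235). In both genes BM mouse 1 was the lowest of its group, as it was for Cdkn1a and Bcl2l1, and without it their differences were 4.82 and 3.75 (adjusted p = 2.71e-08 and 1.17e-07).

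Of 20 further regulators of p53, 11 of 17 tested were higher and 2 lower in BM RPFs at day 4, against 26.2% and 24.7% of all genes, with a median of 0.68 against 0.00 for all genes. They included the checkpoint kinase Chek1, at 13.2, 5.31 and 6.42 CPM in BM and 0.552, 0.364 and 0.452 CPM in WT mice (4.16 ± 0.48, adjusted p = 4.38e-05), and Rpl23, a ribosomal protein that can bind MDM2, at 168, 178 and 147 CPM against 71.8, 67.1 and 87.0 CPM (1.15 ± 0.11, adjusted p = 1.24e-05). At day 10 the counts were 7 higher and 1 lower of 17, against 24.5% and 22.3%, with a median of 0.37. Myc mice at day 4 had 10 higher and 2 lower of 17 in RPFs, against 18.5% and 14.7%, with a median of 0.43. Bcat mice at day 4 had 0 higher and 1 lower of 16, against 6.21% and 6.26%.

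Of 11 further BCL-2 family genes tested in BM RPFs at day 4, 1 was higher and 5 lower, with a median of -0.08, against 26.2% and 24.7% of all genes. At day 10, 6 of 13 were higher and 3 lower in RPFs, with a median of 0.39, against 24.5% and 22.3%. In RNA 3 of 12 were higher and 3 lower at day 10, with a median of -0.15, against 22.9% and 22.8%. Bcl2l11, which encodes the BH3-only protein BIM, was at 1.74, 4.81 and 4.88 CPM in BM and 0.525, 0.716 and 1.20 CPM in WT mice at day 10 (2.22 ± 0.52, adjusted p = 0.0133), and Bik, another BH3-only gene, was at 0.580, 0.621 and 0.578 against 2.80, 2.35 and 3.37 CPM (log2 -2.25 ± 0.30, adjusted p = 0.00167). Without BM mouse 1 these differences were 2.60 and -2.22 (adjusted p = 6.57e-05 and 0.000426). Among 17 caspase and apoptosome genes, 5 of 16 were higher and 5 lower in BM RPFs at day 10, near the 24.5% and 22.3% of all genes. In RNA 1 of 16 was higher and 6 lower, against 22.9% and 22.8%.

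Of 12 death receptor genes tested in BM RPFs, 1 was higher and 7 lower at day 4 (median -0.30; 26.2% and 24.7% of all genes), and 2 were higher and 6 lower at day 10 (median -0.56; 24.5% and 22.3%). The 2 higher ones at day 10 were Tnfrsf1b, a TNF receptor named after its value was seen (0.55 ± 0.14, adjusted p = 0.0206), and Tnfrsf10b, the TRAIL receptor and a p53 target counted in both lists. Tnfrsf10b was at 11.4, 6.44 and 5.95 CPM in BM and 1.05, 1.43 and 0.961 CPM in WT mice at day 10 (2.77 ± 0.35, adjusted p = 0.00138, and 2.41 without BM mouse 1, adjusted p = 2.35e-05). In Bcat mice it was lower than in WT at day 4 (log2 -1.38 ± 0.32, adjusted p = 0.0231) and higher at day 10 (2.06 ± 0.25, adjusted p = 0.001). Fas, likewise counted in both lists, went the other way in BM RPFs. It was lower than in WT at day 4 (log2 -0.75 ± 0.16, adjusted p = 0.00318) and at day 10 (log2 -0.90 ± 0.29, adjusted p = 0.0421). Without BM mouse 1 the day 10 value was -1.31 (adjusted p = 6.44e-05). Dapk1, a death-associated kinase, was at 31.9, 36.2 and 35.9 CPM in BM against 74.9, 91.9 and 77.3 CPM in WT mice at day 10 (log2 -1.24 ± 0.15, adjusted p = 0.00113, and -1.18 without BM mouse 1, adjusted p = 2.09e-05).

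Cells other than hepatocytes were present in these livers, and their markers moved with some groups. Summed RPFs of the Kupffer and macrophage markers ranged from 477 to 519 CPM in BM and from 845 to 973 in WT mice at day 4, and from 1086 to 1204 in BM and from 679 to 942 in WT mice at day 10. Summed hepatocyte markers ranged from 41400 to 50510 CPM in BM and from 76210 to 87440 in WT mice at day 4, and from 42470 to 59250 and 77610 to 97750 at day 10. Summed endothelial markers in RNA ranged from 326 to 371 CPM in BM and from 545 to 554 in WT mice at day 4, and from 339 to 411 and 601 to 636 at day 10. Of 10 markers, 10 and 9 were lower in BM mice at these days, against 20.6% and 22.8% of all genes, and 1 was higher at day 10, against 22.9%. Stellate markers in RNA ranged from 250.4 to 322 CPM in BM and from 486 to 516 in WT mice at day 4, and from 279 to 292 and 522 to 648 at day 10, with 6 of 8 tested lower at each day and 1 higher at day 10. In RPFs 9 and 5 of 10 endothelial and 6 and 6 of 9 stellate markers were lower at the 2 days, against 24.7% and 22.3% of all genes. In each of these lists 1 marker was higher in RPFs at day 10, against 24.5% of all genes. Cholangiocyte markers in RPFs ranged from 41.5 to 59.3 CPM in BM and from 108 to 155 in WT mice at day 4, and overlapped at day 10 (44.2 to 68.9 and 68.0 to 109). Blood cell markers in RPFs at day 4 ranged from 173 to 241 CPM in BM, 175 to 290 in Myc and 272 to 499.6 in Bcat mice, against 373 to 388 in WT mice, and 4 of 4 tested were lower in BM mice (24.7% of all genes). They were at 224 CPM in BM mouse 1 of day 10 and at 619 and 803 in mice 2 and 3, against 370 to 432 in WT mice, and mouse 1 was also the lowest of its group for Bcl2l1 and Cdkn1a RPFs. In Bcat and Myc mice, summed hepatocyte markers in RPFs ranged from 70590 to 81590 and from 53990 to 67550 CPM at day 4, and from 48580 to 49880 and from 48120 to 50700 at day 10, where both groups were below the WT range. Of the 10 endothelial markers, 0 in Bcat and 5 in Myc mice were lower in RPFs at day 4, and 6 and 8 at day 10. Of the 9 stellate markers, 1 and 3 were lower at day 4, and 5 and 4 at day 10. Of all genes tested in RPFs, 6.26% in Bcat and 14.7% in Myc mice were lower at day 4, and 12.1% and 8.8% at day 10. Kupffer and macrophage markers in RPFs ranged from 671 to 787 CPM in Bcat and from 531 to 1445 in Myc mice at day 4, and from 761 to 1103 and 674 to 983 at day 10. Blood cell markers in RPFs at day 10 ranged from 532 to 822 CPM in Bcat mice, above the WT range, and from 207 to 310 in Myc mice, below it. The part of all these markers in the members' changes was not tested.

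Genes whose RNA was most like that of 3 members over the 24 mice were named by Pearson's r among 7677 genes with a mean of at least 10 CPM, as a description over mice that share group and library. For Cdkn1a they were 1810055G02Rik (r = 0.876), Tmem184c (0.783) and the p53 target Trp53inp1 (0.750). For Mdm2 they were Exoc4 (0.854), the member Ccng1 (0.830) and Trmt10a (0.804). For Mcl1, whose RNA varied little between groups, the highest values were 0.715 for Vmn2r114, 0.686 for Mtmr12 and 0.677 for Or51k1.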

How the data were processed

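Liver lysates of 24 mice gave 24 RPF and 24 cytoplasmic RNA libraries. The authors deposited RPF counts, whole-number counts per coding sequence made with Cutadapt, UMI-tools deduplication, removal of rRNA and tRNA reads and BBmap alignment to 1 transcript per gene, the most abundant one, out of GENCODE vM27 (GRCm39) after filtering. They also deposited RSEM expected counts per isoform, with TPM, FPKM and isoform percent values; the submitters' processing notes name cutadapt 1.18, Bowtie2 2.3.5.1 and RSEM 1.3.3. Deposited TPM values were summed per gene and used for the order of levels, and the deposited FPKM and isoform percent values entered no test. Expected counts were summed per gene and rounded. Duplicate reads were removed by molecular identifier from RPF libraries, and the authors state that RNA libraries were processed likewise apart from listed exceptions. Low counts limit precision, and the counts of low genes are given beside some of them and at the end.

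Tests used edgeR 4.0.16 (quasi-likelihood F test, TMM, filterByExpr with a minimum count of 10 and total of 15, R 4.3.3) on the mice of the groups compared, with Benjamini-Hochberg adjustment over all genes and a threshold of 0.1. TE was tested as a group by library-type interaction term. Intervals of 95% used the t quantile at the total degrees of freedom of each fit. Alternatives were DESeq2 1.42.0, RLE factors, other count filters, all 24 mice in 1 fit, RNA of the RPF transcript alone, blocks and leaving out each mouse. RPF and RNA libraries of a mouse deviated together (r = 0.312 to 0.688, mean 0.511), and both came from 1 lysate.

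All 10 members are described. From each other list up to 4 genes per comparison could be named, those called without overlap of the groups and with the largest change. A gene that this rule would name is not reported here. The members and lists were chosen with earlier results of these data known, and the comparisons of WT and of the Bcat effect between days were added after the levels had been seen.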

Additional observations from a re-analysis of the deposited data

Results flagged for a closer look

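Effects that differed by the test of the difference itself are listed here as log2 differences, with no explanation. At day 4 the BM effect exceeded the sum of the Bcat and Myc effects in RPFs of Trp53 (0.54), Cdkn1a (1.53), Phlda3 (2.37), Zmat3 (1.29) and Bax (0.70). In RNA it did so for Mdm2 (0.56), Cdkn1a (1.70), Ccng1 (0.68), Phlda3 (1.50), Zmat3 (0.90) and Bax (0.87), where the calls of Mdm2, Phlda3, Zmat3 and Bax were lost in 1, 3, 9 and 11 of 12 fits without 1 mouse (adjusted p up to 0.104, 0.123, 0.255 and 0.237). At day 10 it exceeded the sum for Bcl2l1 in RPFs (1.71) and RNA (1.06), the RNA call being lost without WT mouse 3 (adjusted p = 0.106), and fell short of it for Trp53 RPFs (-0.75). The RPF calls of Bcl2l1 and Trp53 were lost in 5 and 8 of 12 such fits (adjusted p up to 0.111 and 0.158).

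Between day 4 and day 10 the BM effect rose in RPFs of Cdkn1a (3.49), Zmat3 (0.94) and Bcl2l1 (1.97) and in RNA of Cdkn1a (2.77) and Bcl2l1 (1.23). The Bcat effect rose in RPFs of Mdm2 (0.98), Cdkn1a (2.90), Ccng1 (1.91), Phlda3 (3.08) and Zmat3 (1.32) and in RNA of Mdm2 (0.71), Cdkn1a (2.91), Ccng1 (1.04) and Phlda3 (1.97). The RNA call of Mdm2 was lost without WT mouse 2 or Bcat mouse 1 of day 4 or Bcat mouse 2 of day 10 (adjusted p = 0.101, 0.108 and 0.107), and that of Phlda3 in 9 of 12 fits without 1 mouse (adjusted p up to 0.206). The Myc effect rose in RPFs of Trp53 (0.75) and Cdkn1a (1.184), calls lost in 6 and 8 of 12 such fits (adjusted p up to 0.161 and 0.198). With 3 mice per group no sample was tested as an outlier.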

How the results depend on the processing

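Of 408 member results 111 were called, and none reversed under any alternative run. They stayed called in 100 cases with DESeq2, 111 with RLE factors, 110 without the filter, 98 of 98 with at least 10 counts in every library, 85 with all 24 mice in 1 fit and 49 of 51 with RNA of the RPF transcript alone. Leaving out each mouse in turn, 73 held throughout and 38 were lost at least once. With all 24 mice in 1 fit the number of members called was 1 for Bcat against WT at day 4 in RPFs and in RNA, 1 for Myc against WT at day 4 in RPFs and in RNA, 0 in RNA for BM against Myc and 1 in RNA for BM against the sum at day 4. At day 10 it was 1 in TE for BM against WT, 5 in RPFs and 1 in TE for BM against Myc, 2 in RNA for BM against the sum, and it was 0 in RPFs for the Myc effect between days. RNA of the RPF transcript alone gave 2 for BM against the sum at day 10, and DESeq2 and the absence of a filter gave 1 each in RNA for the Myc effect. The cause was not tested.

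The replicate number as a block kept 107 of 111 calls and gave 5 members for Myc against WT at day 4 in RNA. Libraries with the same number in different genotypes deviated together little on average (mean r of -0.024 to 0.059). Single pairs ranged from -0.27 to 0.318 in RNA and from -0.202 to 0.273 in RPFs at day 10. A low mean cannot show that mice of the same number shared no batch, and this was not tested. The mouse as a replicate block gave 1 member in TE for BM against Myc at day 4 and 1 for BM against WT at day 10, and changed no other TE call.

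Without 1 mouse the number of members called ranged from 1 to 3 in RPFs and from 1 to 2 in RNA for Bcat against WT at day 4, from 1 to 4 in RNA for BM against Myc and from 3 to 5 in RNA for BM against the sum at day 4. At day 10 it ranged from 1 to 5 in RNA for Bcat, from 3 to 5 in RPFs and 2 to 4 in RNA for Myc, and from 4 to 6 in RNA and 0 to 3 in TE for BM against WT. For BM against Myc it was 3 to 5 in RPFs, 2 to 3 in RNA and 0 to 2 in TE, and for BM against the sum 0 to 7 in RPFs and 0 to 2 in RNA. Between days it was 0 to 2 in RPFs and 0 to 1 in RNA for the Myc effect, 3 to 5 in RPFs and 0 to 1 in TE for the BM effect, and 2 to 4 in RNA for the Bcat effect. Shares of all genes in these fits are not given. Depth limited Phlda3 RPFs (3 to 118 counts per library) and RNA (6 to 52), Zmat3 RPFs (13 to 142) and Bbc3 RNA (4 to 26).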
